A study of Homo sapiens with 6 samples.

Results

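The heat shock protein genes examined were HSPA1A, HSPA1B, HSPA1L, HSPA6, HSPA8, HSPA5, HSP90AA1, HSPH1, DNAJB1 and HSPB1. They are 10 of the 19821 protein-coding genes of the RefSeq table on chromosomes 1 to 22 and X, and were taken by name. Each was given a window of its gene body extended by 5 kb on either side (hg38), and the peaks that overlapped the window by at least 1 bp were read from the deposited tables. The 10 windows held 53 of the peaks on these chromosomes: 19 of 39789 in replicate 1, 16 of 60075 in replicate 2 and 18 of 49609 in replicate 3.

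The peaks mark acetylated NEIL1 (AcNEIL1), a DNA glycosylase that starts the repair of oxidised bases, and come from ChIP-seq, the sequencing of DNA pulled down with an antibody. The cells were HCT116, an established human colorectal carcinoma line, growing exponentially and given no further treatment. The series held 3 AcNEIL1 ChIP libraries and 3 input libraries of sheared chromatin, and each ChIP library was called by the authors against the input of the same number. No cells were heat-shocked, so every value describes unstressed cells of 1 line, and the spread between replicates may be technical because separate cultures are not named. Depth after the duplicate filter was 28814429 to 35222701 tags in the ChIP libraries. A gene without a peak is one at which no site passed the authors' q cutoff of 0.05.

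Heat shock proteins are molecular chaperones that bind unfolded proteins and help them refold. HSP70 proteins work in cycles of ATP hydrolysis that J-domain proteins start and nucleotide exchange factors end, HSP90 proteins mature signalling clients, and small heat shock proteins hold unfolded chains without ATP. Some of the genes are read at all times, while others are switched on by heat shock factor 1 (HSF1), which binds inverted repeats of GAA called heat shock elements. HSPA1A, HSPA1B, HSPA6, HSP90AA1, HSPH1, DNAJB1 and HSPB1 were taken as the 7 inducible members. HSPA8, HSPA5 and HSPA1L were taken as the 3 constitutive members, although HSPA5 answers to stress of the endoplasmic reticulum and HSPA1L is a testis gene.

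Peaks were found at most of the heat shock genes. A promoter was under a peak at 2 of the 10 genes, through 1 shared peak in replicate 2, against 9.76% of protein-coding genes with a listed promoter. In at least 2 of 3 replicates 8 of the 10 genes had a peak in the extended window, against 38.4% of all protein-coding genes. HSPA6 had none in any replicate and HSPH1 had 1 peak in replicate 1 only. In all 3 replicates 6 genes had one (HSPA1A, HSPA1L, HSPA5, HSP90AA1, DNAJB1 and HSPB1), against 28.3% of protein-coding genes. By replicate the count was 9, 6 and 8 genes, against 36.2%, 42.8% and 38.5%, so the longest peak list, that of replicate 2, touched the fewest members. The members were not tested as a list. HSPA1A and HSPA1L are neighbours and all 9 peaks in the HSPA1A window also lay in the HSPA1L window, so the 10 genes are not 10 independent places.

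Within 1 kb of either gene end, 6 of the 10 genes had a peak in at least 2 replicates (HSPA1A, HSPA1B, HSPA1L, HSPA5, HSPA8 and DNAJB1), against 15.2% of protein-coding genes. In all 3 replicates it was 3 genes, HSPA1A, HSPA1L and HSPA5, against 9.03%. Without replicate 1, with a peak required in both others, the 6 genes fell to those same 3, and protein-coding genes to 12.5%. At a −log10 q of 5 or more 3 were left as well, there HSPA1A, HSPA1L and HSPA8, and 7.55% of protein-coding genes. Of the 53 peaks 20 lay at a gene end, 14 in the rest of a body and 19 in the flanks, counting a shared peak once by the closest of these classes. In genes as short as HSPA1A (2400 bp) the end windows take up most of the body, so the distances below say more than these classes.

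**Figure D1:**
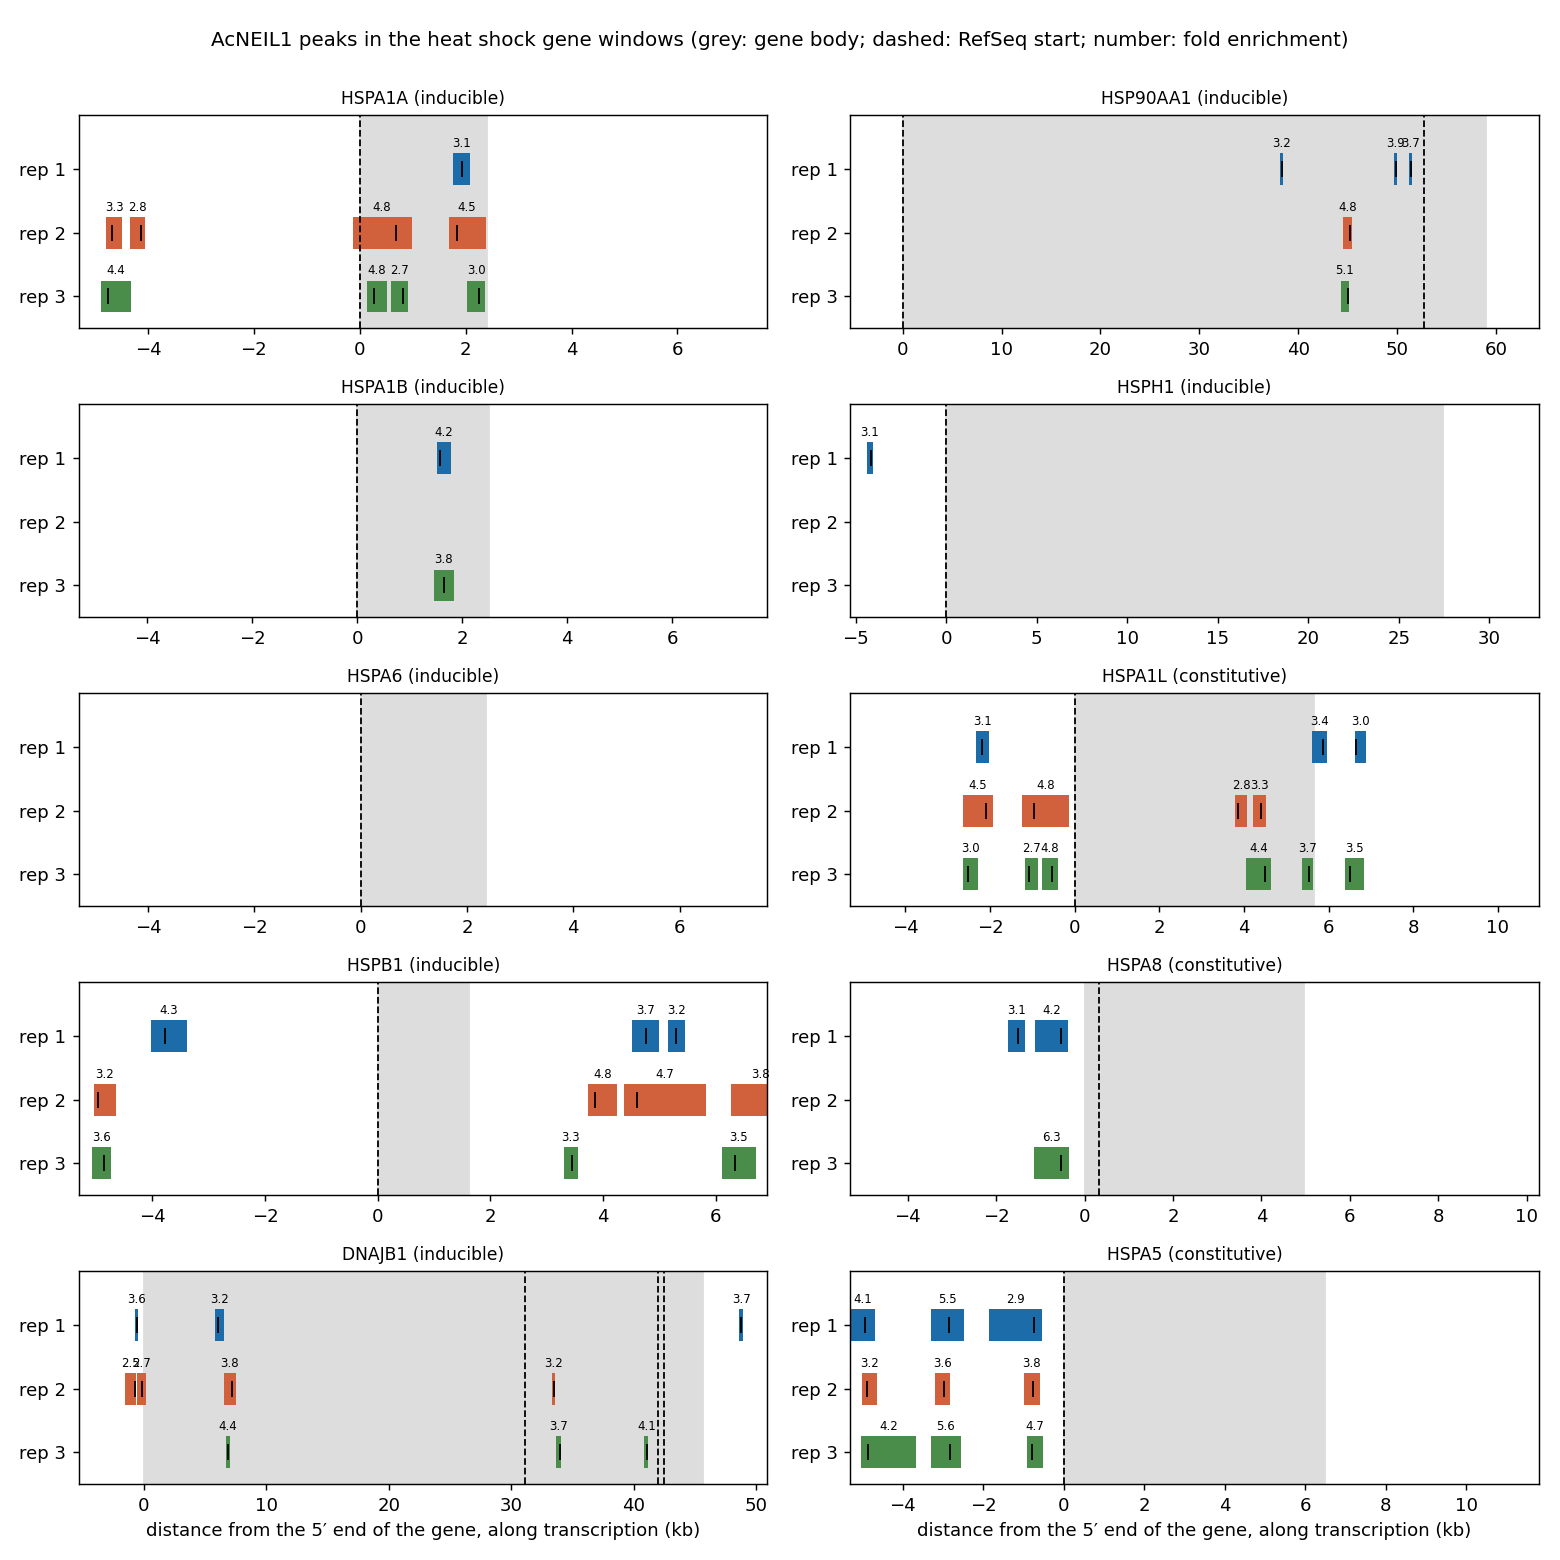
Peaks of each replicate (rows) in the window of each gene, with distance from the gene's 5′ end along transcription on the x axis (kb). Grey marks the gene body, dashed lines the RefSeq start sites, black ticks the summits and the numbers the authors' fold enrichment; peaks that reach past a window are cut at its edge. HSPA5 had 3 peaks upstream of its start in each replicate, and HSPA6 had none.

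The inducible cytosolic HSP70 genes HSPA1A and HSPA1B lie beside each other on the plus strand of chromosome 6 (HSPA1A at 31815543 to 31817942, HSPA1B at 31827738 to 31830254). Their promoters are shown because a peak reached the first and not the second. The 250 bases before each start are given 5′ to 3′ from RefSeq (GRCh38.p14), with the heat shock element, GAANNTTC, in capitals.
HSPA1A (chr6:31815293-31815542, plus strand): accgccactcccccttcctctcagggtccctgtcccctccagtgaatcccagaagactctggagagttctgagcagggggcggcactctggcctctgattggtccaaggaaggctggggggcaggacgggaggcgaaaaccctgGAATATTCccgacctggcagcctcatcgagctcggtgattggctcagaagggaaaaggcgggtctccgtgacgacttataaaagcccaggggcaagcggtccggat
HSPA1B (chr6:31827488-31827737, plus strand): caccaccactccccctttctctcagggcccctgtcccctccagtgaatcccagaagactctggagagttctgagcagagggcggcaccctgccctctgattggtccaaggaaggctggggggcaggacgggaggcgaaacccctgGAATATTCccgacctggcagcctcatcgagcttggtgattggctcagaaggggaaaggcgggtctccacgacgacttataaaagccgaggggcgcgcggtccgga

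HSPA1A had peaks over the first part of the gene in 2 replicates and near its 3′ end in all 3. In replicate 2 a peak of 1108 bp with fold enrichment 4.84 and pileup 26 began 129 bp before the start and ended 978 bp after it. Its outer edge covers the element 106 bp before the start, but its summit lay 694 bp after the start, inside the gene. In replicate 3 that stretch held 2 peaks with folds 4.80 and 2.73 and pileups 22.9 and 18.1, and the nearer one began 129 bp after the start. Replicate 1 had no peak there, and its nearest peak edge was 1767 bp from the start. At the 3′ end the folds were 3.06, 4.55 and 3.03 and the pileups 18, 22 and 17.2 in replicates 1, 2 and 3. These peaks formed 1 merged site with a mean fold of 3.55 ± 0.866 (SD, n = 3), and replicate 2 stood above the other 2. The strongest peak in the window had fold 4.23 ± 1.01 and pileup 22.3 ± 4.03 (SD, n = 3), lowest in replicate 1. It was the 3′ peak in replicate 1 and a peak over the first part of the gene in replicates 2 and 3.

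HSPA1B had 1 peak each in replicates 1 and 3 and none in replicate 2. The folds were 4.23 and 3.84, the pileups 18 and 16.2 and the widths 271 and 375 bp. Both summits lay inside the gene, 1569 and 1648 bp from its start, so neither was at the promoter. The promoter windows of HSPA1A and HSPA1B (250 bases before to 50 after the start) were identical at 277 of 300 aligned bases (92.3%). No stretch of 71 bases, the smallest of the tag sizes that the peak caller determined for each library, was the same in both windows. Shorter tags were not checked. The bodies of these near-identical copies were not compared here, so the share of tags between them is uncertain at the peaks inside the genes.

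HSPA1L, the testis HSP70 gene on the minus strand of chromosome 6 (31809619 to 31815283), starts beside HSPA1A and is read in the other direction. No peak covered its start, and the nearest edge was 2027, 131 and 389 bp away in replicates 1, 2 and 3. Its 5′ peaks were those over HSPA1A. At its 3′ end 2 sites had peaks in replicates 1 and 3: folds were 3.37 and 3.68 at the inner site, and 3.02 and 3.50 at the outer, whose summits lay 979 and 835 bp past the end of the gene. Replicate 2 had no peak at these 2 sites. It had 2 peaks further inside the gene, with folds 3.33 and 2.82, at a place where replicate 3 had fold 4.39.

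HSPA6, an HSP70 gene that is silent until strong stress, lies on chromosome 1 (161524540 to 161526894). It had no peak within 5 kb in any replicate, and the nearest peak edge was 51839, 12290 and 59972 bp from its start. Its promoter is shown because it holds a heat shock element of 3 alternating units and no peak. Capitals mark GAANNTTC and TTCNNGAA matches in the 250 bases before the start, and the longest run is the 3-unit element 74 bp before it.
HSPA6 (chr1:161524290-161524539, plus strand): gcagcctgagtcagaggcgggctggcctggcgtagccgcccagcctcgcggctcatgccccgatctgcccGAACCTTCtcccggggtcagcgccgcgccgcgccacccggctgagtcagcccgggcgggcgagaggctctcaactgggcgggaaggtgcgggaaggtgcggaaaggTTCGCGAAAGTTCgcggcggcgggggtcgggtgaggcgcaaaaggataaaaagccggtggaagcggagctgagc

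HSPA8, the constitutive cytosolic HSP70 (HSC70), lies on the minus strand of chromosome 11 (123057489 to 123062462). Replicates 1 and 3 had a peak just upstream of the gene, with folds 4.24 and 6.26, pileups 22 and 28.6 and widths 748 and 797 bp. Their summits were 11 bp apart, 525 and 536 bp beyond the 5′ gene end, within LOC124902775, a long non-coding RNA gene. The fold of 6.26 was the highest of all 53 peaks and ranked at the 99.4th percentile of the replicate 3 list. Replicate 1 had a further peak of fold 3.11 and pileup 12. Replicate 2 had none in the window, and its nearest peak edge was 85025 bp from the start.

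HSPA5, which encodes BiP, the HSP70 of the endoplasmic reticulum, was the only member with more than 1 site marked in all 3 replicates. It lies on the minus strand of chromosome 9 (125234853 to 125241343), and its window held exactly 3 peaks in each replicate, at the same 3 places. All 9 peaks lay upstream of the start within HSPA5-DT, the divergent long non-coding RNA gene, and none touched the HSPA5 body or its 3′ end. At the site nearest the start the summits were 731, 758 and 781 bp away and spread over 50 bp. The folds there were 2.85, 3.77 and 4.67 and the pileups 24, 18 and 18.1 in replicates 1, 2 and 3. Replicate 1 thus had the highest pileup and the lowest fold at this site, with a local background of 7.77 tags against 4.04 and 3.10.

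The second HSPA5 site, with summits 2849, 2981 and 2834 bp before the start, had the highest mean fold of the 3. Its folds were 5.53, 3.59 and 5.60, with a mean of 4.90 ± 1.14 (SD, n = 3). The pileups were 26, 19 and 21.9, and the widths 817, 364 and 744 bp. Replicate 2 was the lowest in all these measures, and in that replicate the site nearest the start had the higher fold (3.77). The farthest site, with summits 4946, 4876 and 4866 bp before the start, had folds 4.10, 3.18 and 4.20 (mean 3.83 ± 0.565, SD, n = 3). Its summits spread over 80 bp. Of the 5 merged sites in the 10 windows that had a peak in all 3 replicates, 3 were these, and the others were the HSPA1A 3′ end and a site inside DNAJB1 whose peaks were joined through replicate 2. The 250 bases before the HSPA5 start are given because each replicate had its nearest peak beyond them, with edges 538, 591 and 525 bp from the start. Capitals mark CCAAT boxes on either strand.
HSPA5 (chr9:125241344-125241593, minus strand): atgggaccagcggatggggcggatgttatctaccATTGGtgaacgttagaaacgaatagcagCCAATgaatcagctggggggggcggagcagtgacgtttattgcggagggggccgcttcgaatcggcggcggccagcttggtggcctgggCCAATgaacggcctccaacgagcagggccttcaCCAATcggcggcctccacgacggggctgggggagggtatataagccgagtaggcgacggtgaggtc

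HSP90AA1 encodes the inducible cytosolic HSP90 and lies on the minus strand of chromosome 14 (102080742 to 102139749). RefSeq lists a far upstream start at 102139749 and a start of the shorter transcript at 102087044. All 5 peaks lay in the body between these starts, and none was at a gene end. Replicates 2 and 3 shared a site 7482 and 7703 bp before the shorter transcript's start, with folds 4.75 and 5.11, pileups 24 and 25.8 and widths 882 and 796 bp. Replicate 1 had no peak at that site. It had 3 peaks elsewhere, with summits 1336, 2860 and 14319 bp before that start and folds 3.69, 3.87 and 3.25. No place inside HSP90AA1 was therefore marked in all 3 replicates, although each replicate had a peak.

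The co-chaperone genes were marked away from their listed starts. HSPH1, the HSP110 nucleotide exchange factor of HSP70, on the minus strand of chromosome 13 (31134973 to 31162388), had 1 peak in replicate 1. It had fold 3.08 and pileup 20, with its summit 4172 bp before the start in LOC105370148, a long non-coding RNA gene. The nearest peaks of replicates 2 and 3 were 5455 and 6441 bp from the start, outside the window.

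DNAJB1, the J-domain partner of HSP70 (HSP40), lies on the minus strand of chromosome 19 (14514769 to 14560391), and the upstream part of its body overlaps TECR, a fatty acid elongation gene. Its 10 peaks comprised 3, 4 and 3 in replicates 1, 2 and 3. A site within the overlap with TECR had peaks in all 3, with folds 3.22, 3.81 and 4.40 and pileups 21, 29 and 19.1. The 3 summits there were spread over 1157 bp, and the peaks of replicates 1 and 3 did not overlap each other. They were joined only through the replicate 2 peak, so no base of this DNAJB1 site was under a peak in all 3 replicates. At the 5′ gene end replicate 1 had fold 3.57 and replicate 2 had folds 2.69 and 2.46, while replicate 3 had none. No listed start of DNAJB1 lies at that end. The starts in the table are 14517937, 14518397 and 14529271, and the peak closest to one of them had its summit 912 bp away, with fold 4.05 in replicate 3 only.

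HSPB1, the small heat shock protein HSP27, is a short gene of 1620 bp on the plus strand of chromosome 7 (76302673 to 76304292). It was flanked by peaks on both sides in each replicate, and none touched the gene, came within 1 kb of its ends or lay in another listed gene. The nearest edge to its start was 3383, 3734 and 3301 bp away. Upstream, the folds were 4.30 in replicate 1, 3.23 in replicate 2 and 3.64 in replicate 3, and only the last 2 overlapped. Downstream, replicate 2 had 3 peaks with folds 4.78, 4.72 and 3.82 and pileups 25, 25 and 32. The widest, of 1451 bp, was the widest peak in any of the 10 windows. Replicates 1 and 3 had 2 downstream peaks each, with folds between 3.22 and 3.69, and no downstream site had a peak in all 3. The strongest fold per replicate was 4.24 ± 0.573 (SD, n = 3). It was taken upstream in replicates 1 and 3 and downstream in replicate 2, at places that did not overlap, so this is not the spread at 1 site.

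**Figure D2:**
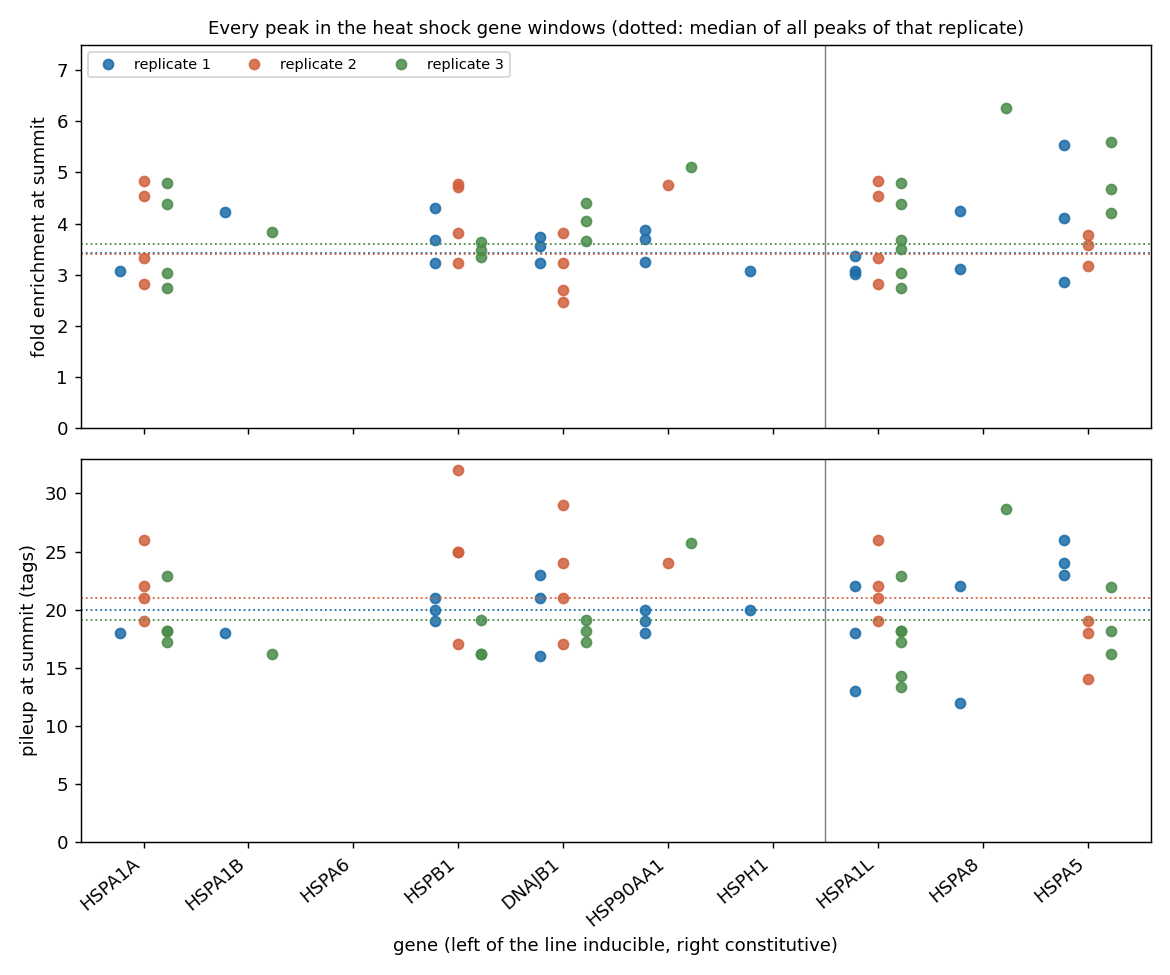
Fold enrichment (upper) and pileup in tags (lower) of every peak in each gene's window, 1 point a peak, coloured by replicate, with the median of that replicate's whole list as a dotted line. Fold ranged from 2.46 to 6.26 and pileup from 12 to 32; HSPA1A and HSPA1L share points because their windows overlap.

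In strength and width these peaks were near the medians of AcNEIL1 peaks in all protein-coding windows, members included. Their median fold was the higher in each replicate, and their median width in replicate 2 only. Over the distinct peaks in the 10 windows the median fold was 3.57, 3.68 and 3.94 in replicates 1, 2 and 3. All peaks in protein-coding windows had medians of 3.42, 3.41 and 3.59. The median pileup was 20, 21.5 and 18.1 tags against 20, 21 and 19.1, and the median width 365, 607.5 and 385.5 bp against 405, 487 and 390 bp. Of the 53 peaks 49 had a fold below 5, and the others were at HSPA8, HSPA5 and HSP90AA1. Merged over replicates they made 28 sites: 12 (42.9%) in 1 replicate, 11 in 2 and 5 (17.9%) in all 3. Over the whole lists 68.3% of merged regions were seen in 1 replicate and 13.2% in all 3. Those lists also cover regions outside gene windows, and 3 of the 5 sites in all replicates were at HSPA5.

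The inducible and constitutive genes were compared within each replicate. A peak in at least 2 replicates was found at 5 of 7 inducible and 3 of 3 constitutive genes. By replicate it was 6, 4 and 5 inducible genes and 3, 2 and 3 constitutive genes. Peaks were denser at the constitutive genes, with 17.0, 14.9 and 21.2 per 100 kb of window against 5.69, 6.17 and 5.69 at the inducible genes. The difference, inducible minus constitutive, was -11.8 ± 3.45 per 100 kb (SD, n = 3). The inducible genes were the lower in each replicate. No test was made, since the genes are not replicates of a condition.

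Gene length and the shared chromosome 6 locus move with this difference. HSP90AA1, DNAJB1 and HSPH1 are long genes, and all 3 are inducible. Among inducible genes of at most 10 kb (HSPA1A, HSPA1B, HSPA6 and HSPB1) the density was 10.3, 16.4 and 16.4 per 100 kb, and the mean difference from the constitutive genes was then -3.30. In replicate 2 these short inducible genes were above the constitutive ones. Without HSPA1L, which shares peaks with HSPA1A, the constitutive density was 15.9, 9.53 and 12.7 and the difference -6.86. With the chromosome 6 genes left out of both classes it was -8.05, with the 3 long genes still in the inducible class. Inducible genes of at most 10 kb averaged 14.4 per 100 kb against 12.7 at the constitutive genes without HSPA1L. With both changes the inducible genes were thus higher on average and in replicates 2 and 3, but lower in replicate 1.

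Over single peaks the differences between the classes were within their spread over replicates. All 9 peaks of the HSPA1A window count in both classes, since they also lie in the HSPA1L window. Median fold was 3.63, 3.81 and 3.75 at inducible genes and 3.24, 3.59 and 4.29 at constitutive genes in replicates 1, 2 and 3. The difference was 0.0223 ± 0.499 (SD, n = 3) and changed sign between replicates. Median pileup was 19.5, 24 and 18.1 against 22, 19 and 18.1 tags. Median width was 317, 715 and 370 bp against 509, 364 and 417.5 bp, a difference of 37.2 ± 281 bp (SD, n = 3). Without HSPA1L the fold difference, inducible minus constitutive, was -0.54 ± 0.809 and the width difference -160.2 ± 443 bp (SD, n = 3), so the direction of both turned.

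**Figure D3:**
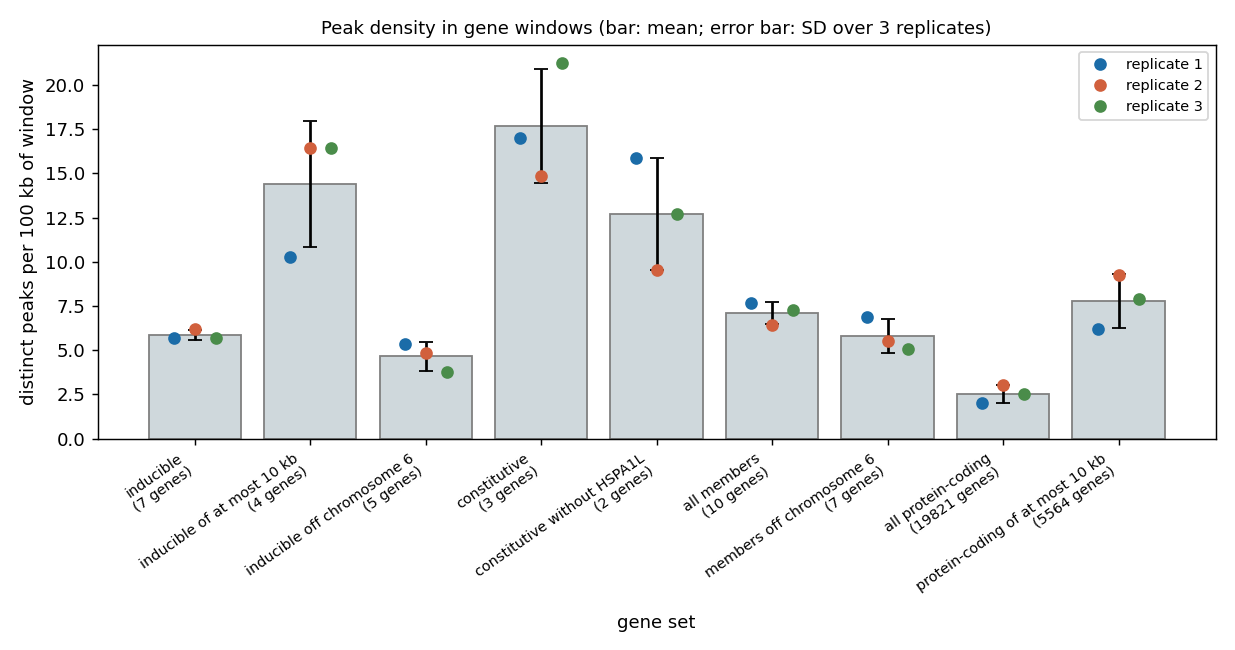
Distinct peaks per 100 kb of gene window for each gene set (bar, mean; error bar, SD over 3 replicates; points, replicates). The 3 constitutive genes averaged 17.7, the 7 inducible genes 5.85, inducible genes of at most 10 kb 14.4 and protein-coding genes of at most 10 kb 7.77.

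Set against the rest of the genome, the 10 windows together held 7.66, 6.45 and 7.25 peaks per 100 kb, a mean of 7.12 ± 0.616 (SD, n = 3). The windows of all protein-coding genes held 2.01, 3.05 and 2.53. Short genes carry more peaks per length: protein-coding genes of at most 10 kb had 6.18, 9.24 and 7.90 per 100 kb, and the 7 heat shock genes of that size 13.9, 12.8 and 16.3. Of these 7 genes 6 had a peak in at least 2 replicates, against 39.0% of protein-coding genes of that size. The 3 longer members had 4.32, 3.09 and 2.47 per 100 kb. Without the chromosome 6 genes the other 7 members had 5.82 ± 0.957 (SD, n = 3).

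Start sites were then examined directly. RefSeq promoter windows, 250 bases before to 50 after a start, were matched for all 10 genes (13 windows). A peak reached them at HSPA1A and HSPA1L in replicate 2 only, and it was 1 and the same peak. Of 15812 protein-coding genes with such a window, 9.76% had one under a peak in at least 1 replicate. None of the 53 summits lay within 250 bp of a listed start, and 9 lay within 1 kb. The closest was 265 bp from the HSPA1A start. Over peaks in all protein-coding windows 1.52%, 1.61% and 1.63% of summits lay within 250 bp of a start in replicates 1, 2 and 3. Within 1 kb it was 2 of 19, 2 of 16 and 5 of 18 summits (10.5%, 12.5% and 27.8%), against 6.41%, 5.74% and 5.92%. Most members are short genes, whose windows keep summits near a start. The median distance was 2860, 4254.5 and 2803.5 bp, against 18055.5, 18813 and 17773 bp in all protein-coding windows. Short protein-coding genes were not set apart here, so these shares do not single out the heat shock genes.

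The heat shock element was searched in these windows on both strands, as GAANNTTC and as TTCNNGAA, which overlap where 3 units alternate. At least 1 such pair was present in 9 of the 13 windows, at all members but HSPA5 and HSPH1, against 13.5% of 35116 listed promoters. Elements of 3 units, GAA and TTC in alternation with 2 bases between them, were at HSPA6, HSPA8 and HSP90AA1, against 0.490% of promoters. The sequence TATAAA was in 3 member windows (HSPA1A, HSPA1B and HSPA1L) and in 11.5% of promoters, and CCAAT was in 9 windows and in 34.6% of promoters. The elements of the members not yet shown are printed below in 40 bases each, 5′ to 3′, because none of them lay under a peak. Capitals mark the GAANNTTC and TTCNNGAA matches. A further GAANNTTC, not shown, begins at the first base of the DNAJB1 start at 14517937.
HSP90AA1, 88 bp before the shorter transcript's start (chr14:102087099-102087138, minus strand): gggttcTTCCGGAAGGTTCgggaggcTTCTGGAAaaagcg
HSPA8, 230 bp before the start (chr11:123062341-123062380, minus strand): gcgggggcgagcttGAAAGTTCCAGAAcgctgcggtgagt
HSPA8, 55 bp before the start (chr11:123062166-123062205, minus strand): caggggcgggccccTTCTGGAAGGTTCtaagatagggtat
DNAJB1, 77 bp before the start at 14518397 (chr19:14518451-14518490, minus strand): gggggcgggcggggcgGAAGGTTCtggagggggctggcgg
DNAJB1, 47 bp before the start at 14518397 (chr19:14518421-14518460, minus strand): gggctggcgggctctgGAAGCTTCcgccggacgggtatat
HSPB1, 182 bp before the start (chr7:76302475-76302514, plus strand): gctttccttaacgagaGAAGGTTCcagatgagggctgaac

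Among the sites with such an element, only that of HSPA1A was under a peak, together with the HSPA1L window that holds the same bases on the other strand. That overlap was in replicate 2 only, at the edge of a peak whose summit lay 694 bp inside HSPA1A. The near copy of HSPA1B, with the same 8 capitals 105 bp before its start, had no peak in any replicate. HSPA5, the member with peaks at the same places in all 3 replicates, held no match. A match is a sequence and not a measured HSF1 site.

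Other chaperone genes were counted the same way, in 6 lists with 61 genes. In the extended window 24 of 61 (39.3%) had a peak in at least 2 replicates, close to the 38.4% of protein-coding genes, and at a gene end 13 (21.3%) against 15.2%. Small heat shock proteins stood highest, with 6 of 8 at a gene end: CRYAA, CRYAB, HSPB2, HSPB6, HSPB7 and HSPB8. The eye lens chaperone gene CRYAA had folds 3.47, 6.44 and 3.83, the heart and muscle gene HSPB7 had 4.22, 5.40 and 4.43, and HSPB6 had 3.87, 4.57 and 3.98. CRYAB and HSPB2 are neighbouring genes.

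In the list of other HSP70 and HSP110 genes, 3 of 9 had a gene-end peak (HSPA9, HSPA12A and HSPA12B). HSPA9, the mitochondrial HSP70, had folds 5.80, 4.12 and 4.78 (4.90 ± 0.846, SD, n = 3), and HSPA12B, a gene of endothelial cells, had 4.79 ± 1.03 (SD, n = 3). Of 14 J-domain genes 3 had one, DNAJA3, DNAJB2 and DNAJB12, and of 17 heat shock factors and co-chaperones 1 did, HSF4. None of 3 other HSP90 genes and none of 10 chaperonin genes had one.

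**Figure D4:**
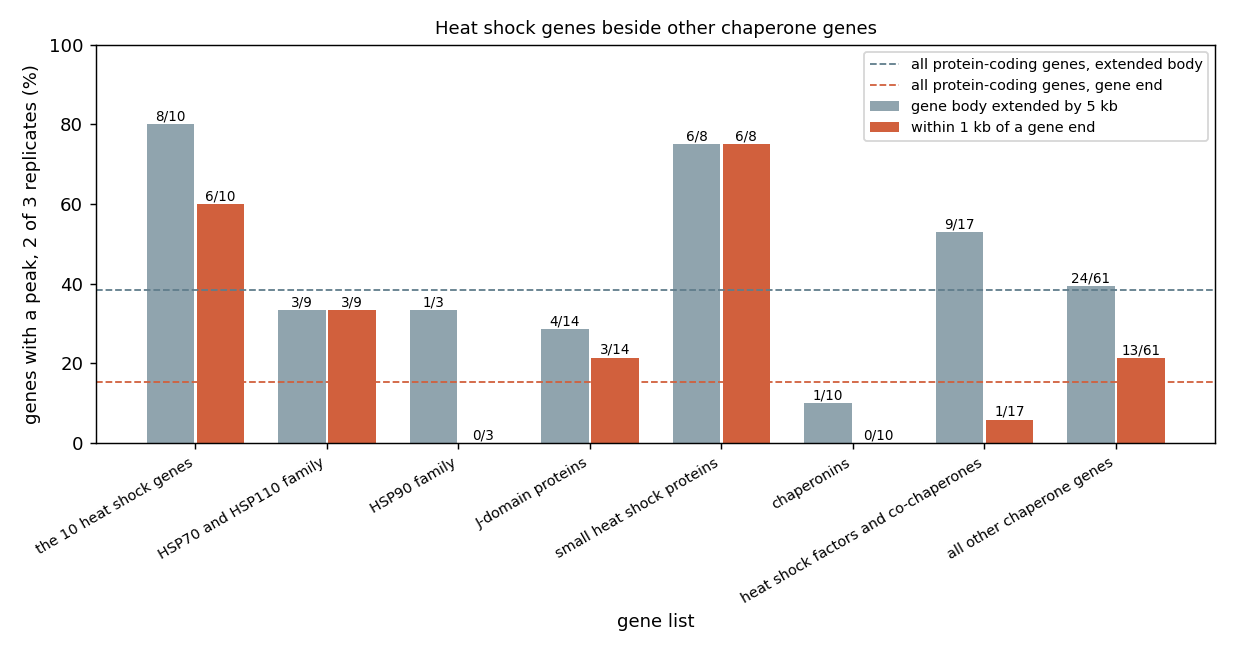
Share of genes (y axis, %) with a peak in at least 2 of 3 replicates, in the extended window (grey) and within 1 kb of a gene end (orange), for the 10 heat shock genes and 6 lists of other chaperone genes; dashed lines give all protein-coding genes. The heat shock genes (8 and 6 of 10) and the small heat shock protein genes (6 and 6 of 8) were highest, and the chaperonins lowest (1 and 0 of 10).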

How the data were processed

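The authors called peaks with MACS 2.1.1.20160309 in each ChIP library against its own input, without pooling, at a q cutoff of 0.05, with at most 2 tags per position and scaling of the larger library down to the smaller, per the file headers. Bowtie2, Trim Galore, cutadapt, FastQC, SAMtools, bedtools and MACS2 are named in the submitters' processing notes. How tags that fit several places were handled is not given in the sources used here. Deposited coordinates are hg38, per the file headers. The deposited signal is the pileup at the summit, in tags extended to 268, 294 and 249 bp. The deposited fold enrichment is a ratio of pileup to local background, each with 1 added. The authors' tables also hold −log10 p and q of each peak, and widths are other deposited values in bp.

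Groups came from the sample titles. Peaks on chromosomes 1 to 22 and X were overlapped with RefSeq genes (GRCh38.p14) after 679 rows on scaffolds or alternate loci were dropped. Strands and starts came from the RefSeq promoter table, which does not list every gene. Local background was recovered from pileup and fold. Python 3.11.15 with pandas 2.3.3 was used, Biopython 1.88 aligned the promoters, and the overlap code was tested on simulated data. There was 1 condition, so no test was run. Pileups of different replicates rest on different depths. All 10 members were named whatever their values, and from each chaperone list up to 4 genes with a gene-end peak in all 3 replicates. The members and lists were chosen with earlier results of these data known.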

Additional observations from a re-analysis of the deposited data

How the results depend on the processing

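The inputs have no table of their own. No paired analysis was possible because the ChIP and input libraries that share replicate numbers are compared only inside the peak caller. Counts of genes and shares of genes took 58 alternative values, of which 50 stayed within 1.5 times the main value. At −log10 q of 5 or more the members with a gene-end peak were 3, and protein-coding genes were at 22.1% for the extended window and 7.55% for a gene end. With a peak required in all 3 replicates the gene-end values were 3 members and 9.03%, and with a peak in any replicate protein-coding genes were at 25.5%. Leaving out 1 replicate and requiring both others gave 3 to 5 members and 9.90% to 12.5% of protein-coding genes at gene ends. The mean density of 7.12 peaks per 100 kb was 5.82 off chromosome 6 and 14.3 for members of at most 10 kb. The density difference of -11.8, inducible minus constitutive, was -3.30 with inducible genes of at most 10 kb, -6.86 without HSPA1L and -8.05 with neither class holding chromosome 6 genes. With the first 2 changes made together its direction turned, with means of 14.4 at inducible and 12.7 at constitutive genes. These density alternatives were added after seeing the data. Of 72 alternative means of a strongest peak, 71 moved by less than 1 SD. Most of them only left out 1 replicate, which cannot move a mean of 3 values by 1 SD, so they are no check. Choosing the strongest peak by pileup could move a mean that far, and did so for the HSPB1 fold, which was then 3.62. It left the HSPA1A and HSPA1L values unchanged. The tables hold no tags outside peaks, so how far a gene without a peak lay below the cutoff was not analysed here.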

Other observations

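The surroundings of the heat shock genes differed widely in peak number. In the 1 Mb around HSPA1A, HSPA1B and HSPA1L there were 102, 142 and 117 peaks in replicates 1, 2 and 3, at the 93.3rd percentile of protein-coding genes. HSPA6, with no peak in its own window, lay in 1 Mb with 32, 62 and 39 peaks, above the median of 18, 28 and 23. HSPA5 was at 18, 24 and 27, near that median, and HSPA8 at 8, 17 and 5, below it. HSPH1 had the fewest, with 6, 10 and 7. Among the genes with peaks in all replicates, HSPA5 (mean 23) and DNAJB1 (36.3) lay in regions with fewer peaks than HSPA6 (44.3). HSPA1A and HSPA1L (120.3), HSP90AA1 (60) and HSPB1 (51.3) lay in regions with more. HSPH1 and HSPA8, which lacked a peak in some replicates, had the lowest totals. HSPA1B, which lacked a peak in replicate 2, had 120.3, as HSPA1A did. A relation between the window and its region was not tested.

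At HSPA5, HSPA8 and HSPH1 all 13 peaks of the windows lay on the upstream side, under a long non-coding RNA gene next to the start. Of these peaks 9 were at HSPA5, at the same places in each replicate, 3 at HSPA8 and 1 at HSPH1. These genes were put together for this trait, and its share over all gene windows was not counted. The promoter windows of HSP90AA1 (shorter transcript) and of DNAJB1 at 14518397 held 48 and 49 CpG dinucleotides, above 98% of listed promoters (98.4th and 98.7th percentile), and neither was under a peak. The HSPA1A promoter window, under a peak in replicate 2 only, held 15, near the median of 14. Those of HSPA1B and HSPH1 held 18 and 17 and were under no peak. A relation between CpG count and peaks was not tested.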
